A study of Mus musculus with 12 samples.

Results

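The data compared here are the prostate messenger RNA of third-generation (F3) male mice from a chlordecone lineage and from a control lineage. They comprise 6 of the 12 samples of the series, 3 libraries of the chlordecone lineage and 3 of the control lineage, all taken from the F3 table of raw read counts, with columns headed K read as chlordecone (kepone) and columns headed C as control. Every one of the 26023 genes in that table was considered, and 16766 had enough counts to be tested. In the chlordecone lineage the founding pregnant females (F0) received 100 µg/kg/day of chlordecone over an embryonic window (E6.5-E15.5), and their progeny were bred on to F3, so that no F3 male was itself dosed. The control lineage is labelled only as control. Both groups are prostate samples of F3 males. Whether the whole gland was taken is unknown here, as are strain, age, lobe, vehicle and litter. The labels do not say whether a sample is 1 animal or a pool, or how many dosed females the F3 males descend from, so every p-value measures only the spread between these samples.

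Chlordecone, also called kepone, is an organochlorine insecticide that binds oestrogen receptors. The mouse prostate is a set of glands whose luminal epithelial cells secrete seminal fluid proteins under the control of androgens, resting on a thin layer of basal epithelial cells and surrounded by smooth muscle. A lineage comparison at F3 asks whether transcript levels still differ in males that descend from a dosed female but were not exposed as embryos or as germ cells. Because tissue holding several cell types was sequenced, fewer cells of a type and less RNA per cell cannot be told apart in any result given here.

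Total counts were between 71672418 and 114762135 per library. The most abundant transcripts were prostate secretory products: 9530053A07Rik took 11.6% to 16.6% of the counts and Tgm4, a transglutaminase of the copulatory plug, took 6.71% to 7.69%. The tissue label therefore has its defining markers in all 6 libraries. Transcripts encoded by the mitochondrial genome took 0.792% to 0.993% of the counts in controls and 0.903% to 1.18% in chlordecone libraries. The chlordecone libraries were closer to each other (r of log2 CPM, counts scaled to the library total, across genes from 0.986 to 0.987) than the controls were (0.970 to 0.975), and a pair from different groups had 0.971 to 0.979. Levels are in CPM (TMM-scaled), and a fold change is chlordecone over control on the log2 scale.

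At a Benjamini-Hochberg adjusted p under 0.05 in edgeR's quasi-likelihood test, the call rule used throughout, 10 of 16766 genes (0.0596%) were called, 4 of them higher (0.0239%) and 6 lower (0.0358%) in the chlordecone lineage. Of the genes that fell, Ren1 had the largest fold change. It encodes renin, the protease that releases angiotensin I from angiotensinogen. Ren1 fell from 7585, 3398 and 5171 CPM in control 1, 2 and 3 to 14.5, 8.66 and 16.6 CPM in chlordecone 1, 2 and 3 (log2 fold change -8.67, SE 0.46, adjusted p = 0.000381). The lowest control was far above the highest chlordecone library, and on the log scale the gap between the groups was wider than the spread within either. Renin is best known from the juxtaglomerular cells of the kidney, and some mouse strains carry a second, near-identical renin gene, Ren2. The strain is not given, so whether reads of Ren2 were counted under Ren1 was not tested. The Ren1 promoter is shown because no other gene that fell had so large a fold change. It is chr1:133350424-133350723 on the plus strand of GRCm38.p6 in RefSeq's table, from 250 bases before the start to 50 after it, with the letters TATAAA, searched on the strand of the gene, in capitals.
Ren1 promoter: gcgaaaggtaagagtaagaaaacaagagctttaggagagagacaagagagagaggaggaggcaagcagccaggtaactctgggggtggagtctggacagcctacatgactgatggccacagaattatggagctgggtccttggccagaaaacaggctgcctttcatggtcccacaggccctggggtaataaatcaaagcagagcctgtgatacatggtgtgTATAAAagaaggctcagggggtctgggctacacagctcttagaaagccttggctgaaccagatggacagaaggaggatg
The capitals start 29 bases before the annotated start, and 9.77% of 27025 mouse genes have these letters in a window of the same length.

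Other genes of the renin-angiotensin system showed no such difference. Of 12 tested genes of that system, 3 were higher and 1 lower at an unadjusted p under 0.05, the last being Ren1 (over all genes 4.97% were higher and 5.64% lower at that level, 10.6% in all). Agtr1a, the type 1 receptor of angiotensin II, had 7.48, 7.26 and 7.09 CPM in controls and 16.4, 12.8 and 11.8 CPM in chlordecone libraries (log2 fold change 0.91, adjusted p = 0.218). Mme, the membrane peptidase neprilysin, which cleaves angiotensin I, had 252, 177 and 144 CPM against 492, 357 and 261 CPM (adjusted p = 0.389). The groups did not overlap for these 2 genes, yet both missed the threshold. Ace, the angiotensin-converting enzyme, had 685 to 1012 CPM in controls and 808 to 953 CPM in chlordecone libraries, with overlapping groups, and Agt, which encodes the renin substrate angiotensinogen, stayed under 1 CPM in all 6 libraries.

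A second pair of genes that fell lies on either side of Ren1 on chromosome 1. Golt1a, a vesicle transport protein of the Golgi (133309800 to 133323026 in GRCm38), fell from 3.33, 3.04 and 3.29 CPM to 0.655, 0.465 and 0.472 CPM (log2 fold change -2.60, SE 0.25, adjusted p = 0.0119). Fmod, fibromodulin, a small leucine-rich proteoglycan that binds collagen fibrils (134037254 to 134048277), fell from 31.8, 32.1 and 30.7 CPM to 11.04, 14.4 and 14.8 CPM (log2 fold change -1.23, SE 0.14, adjusted p = 0.0399). For both genes every chlordecone library was below every control. Within 1.5 Mb on either side of Ren1, 51 genes were tested and 6 had an unadjusted p under 0.05, all lower (11.8%, against 10.6% over all genes): these 3, Gm28040, which overlaps Golt1a on the same strand, Optc and Etnk2. Here and in the windows below, a gene past the threshold is counted in its own window, which raises that share. Etnk2, an ethanolamine kinase that starts 13 kb from Ren1, had 21.3, 24.6 and 20.4 CPM in controls and 17.6, 13.3 and 12.6 CPM in chlordecone libraries (adjusted p = 0.377). Optc, opticin, a proteoglycan of the same family as Fmod, had 0.857, 2.81 and 3.18 CPM against 0.503, 0.929 and 0.717 CPM (adjusted p = 0.389). Among 15 tested small leucine-rich proteoglycans 2 were lower at an unadjusted p under 0.05, Fmod and Optc, and the median log2 fold change was 0.01, where that of all genes tested was -0.01. Dcn and Lum, the widespread members decorin and lumican, had log2 fold changes of 0.10 and 0.01.

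Trim5, an antiviral restriction factor, fell from 1.43, 1.19 and 1.602 CPM to 0.126, 0.0929 and 0.0755 CPM (log2 fold change -3.82, SE 0.35, adjusted p = 0.0102). It lies on chromosome 7 (104263386 to 104288094) in a cluster of related Trim genes. Trim6, 45 kb away, had 1.51, 1.91 and 3.20 CPM in controls and 0.476, 0.0465 and 0.123 CPM in chlordecone libraries (adjusted p = 0.300). Trim30d, on the other side, had 0.1798, 0.297 and 0.315 CPM against 0.0269, 0 and 0.00943 CPM (adjusted p = 0.194). The groups did not overlap for any of the 3 genes. Of 9 tested genes in the list of related Trim genes 6 were lower and 3 higher, the last being Trim12c, Trim21 and Trim68. Trim12c, between Trim5 and Trim30d, had 9.74, 8.02 and 0.797 CPM in controls and 11.3, 10.3 and 11.7 CPM in chlordecone libraries, control 3 standing apart from the other 5 and all chlordecone libraries above all controls. Trim21 and Trim68, which lie more than 1.5 Mb from Trim5, had log2 fold changes of 0.08 and 0.02. Within the same distance of Trim5 28 genes were tested and 6 had an unadjusted p under 0.05 (21.4%, against 10.6% over all genes). All 6 were lower, the other 3 being Smpd1, Timm10b and Hbb-bt.

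Fut4, a fucosyltransferase that builds the Lewis x sugar epitope, fell from 6.53, 5.64 and 5.53 CPM to 1.25, 1.43 and 1.75 CPM (log2 fold change -2.0, SE 0.21, adjusted p = 0.0231). Its neighbour Piwil4, a germline protein that binds small RNAs and silences retroelements, starts 52 kb away on chromosome 9. Piwil4 had 1.88, 2.09 and 1.44 CPM in controls and 0.341, 0.163 and 0.358 CPM in chlordecone libraries (log2 fold change -2.63, SE 0.37, adjusted p = 0.0896 in edgeR). DESeq2 called both genes. Around Fut4 27 genes were tested, of which 4, Fut4 itself among them, had an unadjusted p under 0.05 (14.8%, against 10.6% over all genes). Of 19 tested fucosyl- and sialyltransferases 1 was lower at an unadjusted p under 0.05, Fut4, and 1 was higher, Fut8, the core fucosyltransferase (236, 198 and 228 CPM against 349, 260 and 258 CPM, adjusted p = 0.458).

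Lsm6, a subunit of the ring complexes that act in splicing and in decay of messenger RNA, fell from 39.2, 40.2 and 40.4 CPM to 16.6, 19.7 and 20.9 CPM (log2 fold change -1.07, SE 0.13, adjusted p = 0.0460). Every chlordecone library was below every control. Of 35 tested spliceosome and Lsm genes 4 were lower and 1 higher at an unadjusted p under 0.05 (5.64% and 4.97% of all genes). Lsm4 and Lsm7, partners in the same rings, had 44.0, 47.3 and 37.8 CPM against 27.3, 24.7 and 35.1 CPM, and 9.92, 15.4 and 17.3 CPM against 8.10, 8.71 and 11.2 CPM. The groups overlapped for Lsm7 and not for Lsm4, and the count of 4 was 2 without chlordecone 1 or chlordecone 2 and 7 without chlordecone 3. On chromosome 8 around Lsm6, 17 genes were tested and 7 had an unadjusted p under 0.05 (41.2%, against 10.6% over all genes). Apart from Lsm6 itself these were higher: Arhgap10, Tmem184c, Zfp827, Otud4, Mmaa and Abce1.

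**Figure D1:**
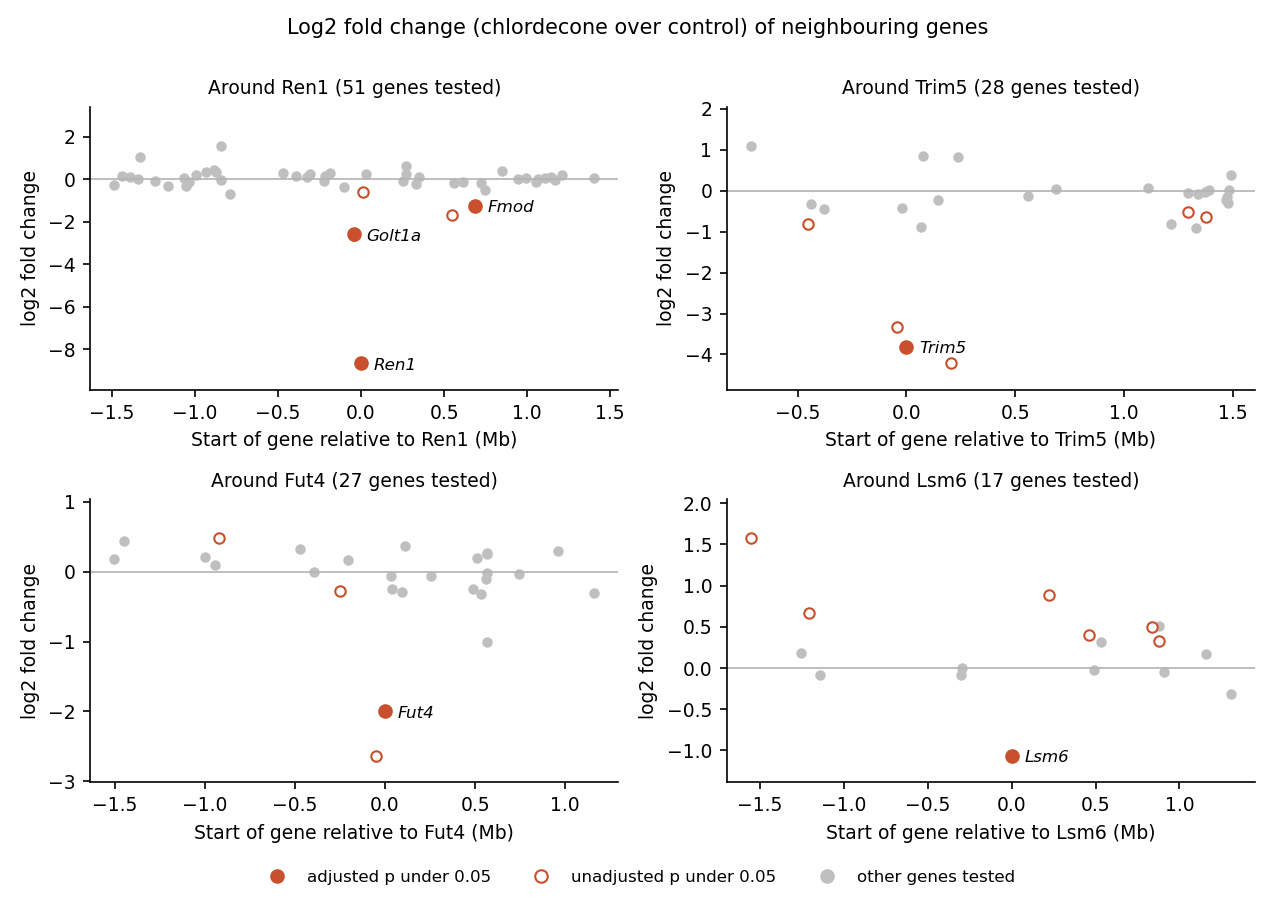
Log2 fold change (vertical axis, chlordecone over control) of each gene tested against the distance of its start from Ren1, Trim5, Fut4 or Lsm6 (horizontal axis, Mb). Filled red points have an adjusted p under 0.05, open red points an unadjusted p under 0.05 and grey points neither. Around Ren1 and Trim5 every red point is below 0, and around Lsm6 every red point but Lsm6 is above 0.

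The genes that rose start with Ms4a5, a membrane protein of the Ms4a family on chromosome 19 (11273238 to 11283873). It had 0 counts in the 3 controls and 5.47, 6.04 and 5.25 CPM in the chlordecone libraries, at least 169-fold higher if each control is set to a floor of 3 counts, or 0.0330 CPM on average (adjusted p = 0.000789). The floor covers counting error only. 4930526L06Rik, which overlaps Ms4a5 on the other strand, had 0.0212, 0.0141 and 0.0166 CPM in controls and 0.251, 0.256 and 0.406 CPM in chlordecone libraries (adjusted p = 0.0732). The strand setting of the counting is unknown here, so reads of the 2 genes cannot be told apart. Of 10 tested family members 7 were lower and 3 higher, Ms4a5 included. At an unadjusted p under 0.05, 3 were lower (5.64% of all genes), among them Ms4a6d. It had 0.624, 0.679 and 0.631 CPM in controls and 0.242, 0.116 and 0.283 CPM in chlordecone libraries (adjusted p = 0.345). The count of 3 was 1 without control 2, chlordecone 1 or chlordecone 2. Within 1.5 Mb of Ms4a5 48 genes were tested, of which 4 were higher and 6 lower at an unadjusted p under 0.05 (20.8% in all, against 10.6% over all genes). Ms4a5 itself is among the 4.

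Ubash3b, a phosphatase that dampens tyrosine kinase receptor signalling, rose from 0.370, 0.311 and 0.357 CPM to 7.04, 6.74 and 8.39 CPM (log2 fold change 4.41, SE 0.22, adjusted p = 0.000381). It overlaps numbered gene models on both strands of chromosome 9 (41011098 to 41161697). Of 12 genes tested within 1.5 Mb on either side, none but Ubash3b had an unadjusted p under 0.05 in edgeR. Gm8399, which is annotated as a processed pseudogene and may share reads with its parent gene, rose from 8.98, 9.04 and 6.80 CPM to 33.9, 31.8 and 33.5 CPM (log2 fold change 2.0, SE 0.15, adjusted p = 0.00272). Of the 9 genes tested in its window on chromosome 13, 4 were higher at an unadjusted p under 0.05 (44.4%, against 10.6% of all genes in either direction). Besides Gm8399 these were Lysmd3, Polr3g and Arrdc3.

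Upk1a, a uroplakin, one of the membrane proteins that plate the surface of the urothelium, rose from 3.52, 2.23 and 3.24 CPM to 14.6, 20.2 and 14.95 CPM (log2 fold change 2.46, SE 0.23, adjusted p = 0.0102). Upk1b, its paralog and partner in another uroplakin pair, had 102, 104 and 115 CPM in controls and 167, 149 and 179 CPM in chlordecone libraries (log2 fold change 0.63, SE 0.12, adjusted p = 0.253). The other urothelial markers did not go with them. Upk2, the partner of Upk1a in the plaque, had 1.99, 3.03 and 2.19 CPM against 2.33, 2.64 and 3.97 CPM, Upk3b had 6.94, 49.1 and 29.7 CPM against 17.1, 15.4 and 24.8 CPM, and Gata3 was lower in every chlordecone library (337 to 390 CPM against 276 to 326 CPM, adjusted p = 0.4996). Upk3a and Krt20 had 10 counts or fewer in each library and were not tested. Over the 8 tested urothelial genes 4 were higher and 4 lower. Summed with the 4 listed genes not tested, the level was 497 to 508 CPM in controls and 480 to 532 CPM in chlordecone libraries. Within 1.5 Mb of Upk1a 82 genes were tested, of which 4 were higher and 12 lower at an unadjusted p under 0.05 (19.5% in all, against 10.6% over all genes). Upk1a itself is among the 4.

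**Figure D2:**
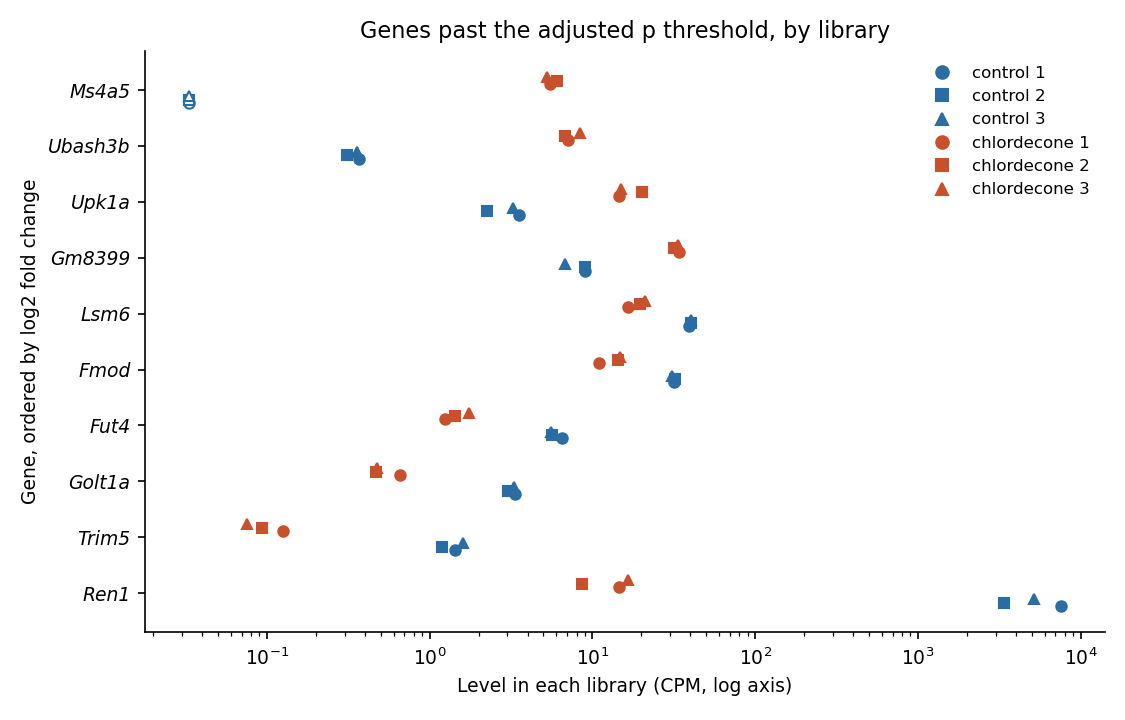
Level in each library (horizontal axis, CPM, log axis) of the 10 genes with an adjusted p under 0.05 (vertical axis, ordered by log2 fold change), with controls in blue and chlordecone libraries in red. Open symbols mark 0 counts, drawn at the floor of 0.0330 CPM. No gene shows an overlap between the groups, and the gap is widest for Ren1 and Ms4a5.

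Ren1, Ubash3b, Ms4a5 and Gm8399 stayed under an adjusted p of 0.05 whichever library was left out. The calls of Fmod and Lsm6 ended without control 2, and with them that of Fut4 without chlordecone 1. Without chlordecone 3 Golt1a was lost too, without chlordecone 2 also Trim5, and without control 3 also Upk1a. The highest adjusted p was 0.0755 for Trim5, 0.0605 for Upk1a, 0.103 for Golt1a, 0.168 for Fut4, 0.199 for Fmod and 0.237 for Lsm6. In DESeq2, which called 249 of 16743 genes (1.49%), 114 higher (0.681%) and 135 lower (0.806%), all 10 were called.

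Genes that came close to the threshold without reaching it were of varied kinds. They were ranked by p among genes with a mean of at least 1 CPM, groups that do not overlap and no numbered-model or Rik name. That rule left out Gm28040 (adjusted p = 0.0596) and 4930526L06Rik (adjusted p = 0.0732). Among lower genes the smallest p belonged to Stard3nl, a tether between late endosomes and the endoplasmic reticulum, with 55.5, 54.3 and 45.9 CPM in controls and 26.8, 27.1 and 24.0 CPM in chlordecone libraries (log2 fold change -1.0, adjusted p = 0.0562). Piwil4 came next, then Dusp10, a phosphatase of the stress kinases p38 and JNK (17.8, 27.2 and 23.4 CPM against 8.66, 9.78 and 6.53 CPM, adjusted p = 0.0998), and Ramp1, a subunit of the receptor for calcitonin gene-related peptide (43.0, 59.8 and 38.4 CPM against 20.3, 18.8 and 13.8 CPM, adjusted p = 0.105). Fstl1, a secreted antagonist of BMP signalling, had 122, 94.7 and 72.9 CPM against 44.4, 33.5 and 44.0 CPM (adjusted p = 0.154). Cyfip2, Tnnt1, Psme2b, Ift81, Gpha2, Ankrd1 and Ceacam10 completed the 12, with adjusted p from 0.1704 to 0.258. Among higher genes Sprr1a, a cornified envelope precursor of stressed or squamous epithelium, had 0.212, 0.693 and 0.332 CPM in controls and 3.67, 2.63 and 2.86 CPM in chlordecone libraries (log2 fold change 2.91, adjusted p = 0.105). Csrp2, a LIM protein of smooth muscle, had 23.9, 29.7 and 33.4 CPM against 83.5, 54.2 and 67.2 CPM (adjusted p = 0.127), and Elf5, a transcription factor of secretory epithelium, had 62.0, 35.9 and 48.2 CPM against 87.5, 109 and 133 CPM (adjusted p = 0.249). Hoxa7, Slc30a4, Btg3, Uck2, Uty, Tyro3, Tex15, Agtr1a and Upk1b were the others, with adjusted p from 0.105 to 0.253. These genes were taken from those whose groups do not overlap, which held for 16.6% of all genes tested, 8.34% higher and 8.25% lower.

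Interferon response genes were lower as a group. Type I interferons signal through transcription factors that bind the interferon-stimulated response element (ISRE) and switch on antiviral effectors. Of 30 tested genes 29 were lower in the chlordecone lineage, where 51.2% of all genes were, and the median log2 fold change was -1.10. None passed the threshold in edgeR, 17 were lower and 0 higher at an unadjusted p under 0.05 (5.64% of all genes were lower), 13 had groups that did not overlap on the lower side (8.25% of all genes), and DESeq2 called 7. The summed level of the 30 genes was 680, 353 and 374 CPM in control 1, 2 and 3 and 274, 274 and 274 CPM in chlordecone 1, 2 and 3. Control 1 was thus the highest library by far, while control 2 and 3 were also above every chlordecone library.

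Isg15, a ubiquitin-like protein conjugated to other proteins during the antiviral response, had 8.79, 4.38 and 5.01 CPM in controls and 1.86, 1.39 and 2.83 CPM in chlordecone libraries (log2 fold change -1.58, SE 0.35, adjusted p = 0.311). Usp18, which removes Isg15 and blocks the interferon receptor, had 24.0, 8.26 and 7.70 CPM against 3.82, 3.99 and 4.85 CPM (adjusted p = 0.351). Bst2, tetherin, which holds budding virions at the cell surface, had 54.8, 32.1 and 28.7 CPM against 14.1, 17.0 and 23.6 CPM (adjusted p = 0.352). Ifi27 was the most abundant of the 17, with 163, 102 and 74.7 CPM against 43.0, 63.0 and 40.9 CPM (adjusted p = 0.330). For these 4 genes no chlordecone library reached the lowest control. Rsad2, viperin, an antiviral enzyme, had 2.04, 0.849 and 2.71 CPM against 0.431, 0.349 and 0.773 CPM (log2 fold change -1.85, adjusted p = 0.358).

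Of 4 tested signal transducers of the Stat and Irf families all were lower, 2 of them at an unadjusted p under 0.05 and 1 without overlap. Irf7 was at that level, with 37.7, 10.1 and 11.9 CPM against 8.95, 6.68 and 10.98 CPM (adjusted p = 0.458) and overlapping groups. Stat2, with 78.5, 34.4 and 48.1 CPM against 49.6, 47.4 and 39.0 CPM, and Irf9, with 77.6, 39.8 and 40.1 CPM against 40.7, 32.2 and 35.4 CPM, missed that level and overlapped as well. Of the RNA sensors, Ddx58 (RIG-I) and Dhx58 were lower at that level and Ifih1 (MDA5) was not. Of 4 Oas family genes, which make the second messenger that activates RNase L, 3 were lower at that level, and of 4 Ifit genes, which bind foreign RNA caps, 2 were. Cxcl10, a chemokine that interferon gamma induces, stayed under 0.5 CPM in all 6 libraries.

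**Figure D3:**
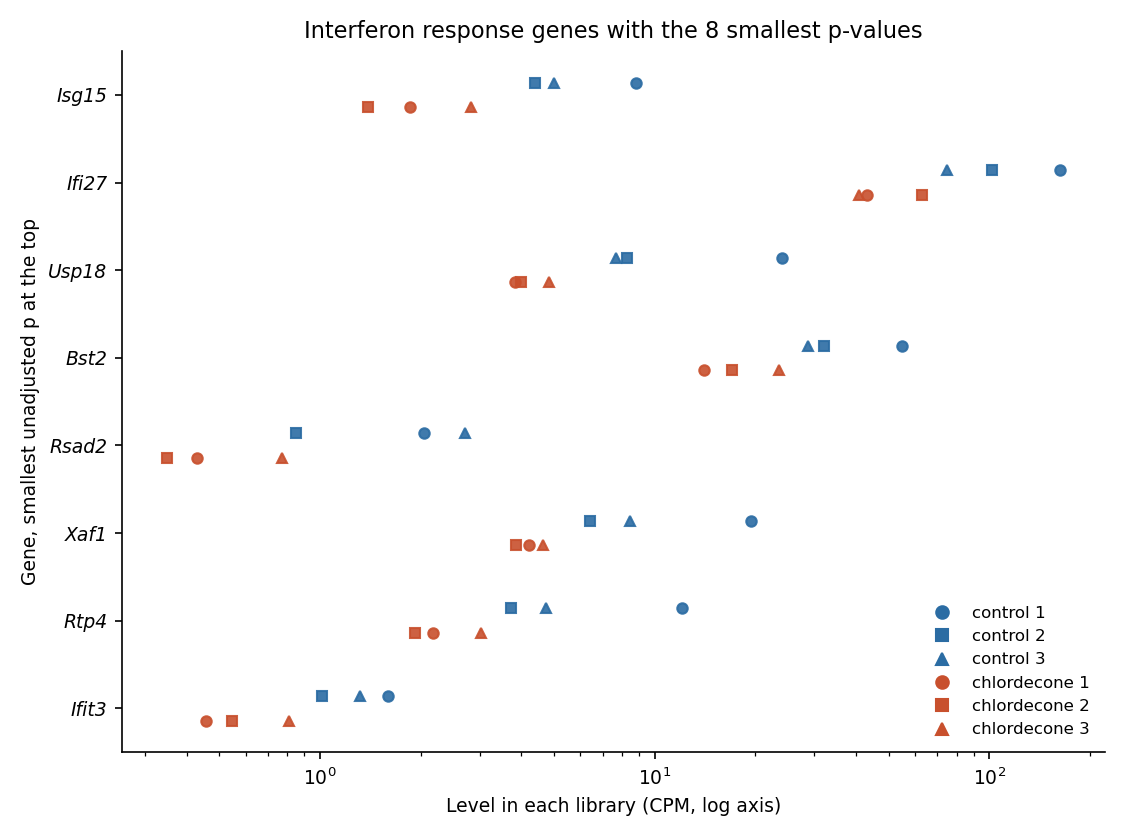
Level in each library (horizontal axis, CPM, log axis) of the 8 interferon response genes with the smallest p (vertical axis, smallest at the top), with controls in blue and chlordecone libraries in red and 1 symbol shape per replicate number. Control 1, the blue circle, is the highest point of every row but that of Rsad2, and all controls lie above all red points in each row.

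The size of this shift depended on control 1, which was the highest library for 22 of the 30 genes. Without control 1 the median log2 fold change was -0.45, with 26 genes lower and 10 at an unadjusted p under 0.05, and without chlordecone 1 or chlordecone 2 the last count was 11. Leukocyte markers did not separate the groups: their summed level was 68.1, 117 and 70.2 CPM in controls and 55.2, 59.4 and 84.5 CPM in chlordecone libraries, and 1 of 23 had an unadjusted p under 0.05, Itgam, which was higher. Ptprc (CD45) was between 0.837 and 3.46 CPM. Whether leukocytes have a part in the interferon values was not tested.

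Promoters are shown for the 3 of the 5 interferon genes with the smallest p that RefSeq's table of GRCm38.p6 holds (Isg15, Rsad2 and Bst2). The core of the ISRE, a pair of GAAA runs with any 2 bases between them, was searched on both strands from 250 bases before to 50 after the start, and matches are in capitals. Isg15 lies on chr4:156200769-156201068, Rsad2 on chr12:26456403-26456702 and Bst2 on chr8:71537423-71537722, all on the minus strand and written 5′ to 3′ along the gene.
Isg15 promoter: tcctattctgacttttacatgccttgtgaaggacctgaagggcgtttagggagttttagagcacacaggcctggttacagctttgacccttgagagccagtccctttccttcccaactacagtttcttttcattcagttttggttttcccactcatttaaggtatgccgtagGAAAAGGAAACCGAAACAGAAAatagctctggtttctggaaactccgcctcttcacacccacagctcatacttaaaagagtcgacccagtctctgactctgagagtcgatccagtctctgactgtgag
Rsad2 promoter: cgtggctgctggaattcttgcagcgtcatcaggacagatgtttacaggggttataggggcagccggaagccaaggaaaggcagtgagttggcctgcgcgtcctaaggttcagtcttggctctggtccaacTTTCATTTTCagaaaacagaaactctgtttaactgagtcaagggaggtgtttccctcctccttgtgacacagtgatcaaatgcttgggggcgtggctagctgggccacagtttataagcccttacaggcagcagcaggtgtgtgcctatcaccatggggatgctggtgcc
Bst2 promoter: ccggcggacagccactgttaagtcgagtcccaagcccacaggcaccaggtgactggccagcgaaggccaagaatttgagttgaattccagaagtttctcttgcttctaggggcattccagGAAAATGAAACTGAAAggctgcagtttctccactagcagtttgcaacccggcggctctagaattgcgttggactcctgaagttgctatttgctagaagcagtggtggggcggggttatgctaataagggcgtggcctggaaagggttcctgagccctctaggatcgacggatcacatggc
Isg15 holds 3 overlapping matches, Bst2 2 overlapping matches and Rsad2 1, which runs on the other strand. Of the 30 genes 20 have a promoter in the table, and 14 of these (70.0%) hold the motif, as do 3.99% of all 27025 genes. A match is a run of letters and not a measured binding site. Whether the motif goes with the difference between the lineages was not tested.

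Antigen presentation genes were lower as well, by less. All 24 tested members had a negative log2 fold change (51.2% of all genes had), with a median of -0.47. None passed the threshold, and 7 were lower and 0 higher at an unadjusted p under 0.05 (5.64% of all genes were lower). Groups did not overlap on the lower side for 6 (8.25% of all genes). The 3 immunoproteasome subunits, which replace the standard catalytic subunits when peptides are cut for class I molecules, were all among the 7: Psmb8 had 12.6, 18.1 and 11.8 CPM in controls and 6.45, 6.33 and 8.06 CPM in chlordecone libraries (log2 fold change -1.03, SE 0.21, adjusted p = 0.270). Tapbp, tapasin, which loads peptide on class I molecules, had 151, 131 and 128 CPM against 81.9, 89.6 and 97.2 CPM (adjusted p = 0.270). The class I heavy chain H2-D1 had 584, 745 and 559 CPM against 403, 411 and 535 CPM (adjusted p = 0.435), without overlap. Of 7 class II genes, which professional antigen-presenting cells express, all were lower, with a median of -0.27 and 0 at an unadjusted p under 0.05. Their main chains followed single libraries, H2-Aa having 31.8, 35.8 and 17.4 CPM in controls and 14.4, 17.2 and 38.9 CPM in chlordecone libraries. In the promoters of this list the ISRE letters were found in 3 of 19 genes (15.8%). The count of 7 was 4 without control 2 or chlordecone 1, 3 without chlordecone 2 and 11 without chlordecone 3.

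Nuclear genes for oxidative phosphorylation, the complexes of the inner mitochondrial membrane that respire and make ATP, were lower by a small amount. Of 76 tested genes 72 were lower, the median log2 fold change was -0.33, and 41 were lower and 0 higher at an unadjusted p under 0.05 (5.64% of all genes were lower). None passed the threshold in edgeR, DESeq2 called 4, and in 40 genes every chlordecone library was below every control (8.25% of all genes). The median over the 76 genes of log2 CPM minus the control mean was -0.12, 0.17 and -0.05 in control 1, 2 and 3 and -0.45, -0.36 and -0.19 in chlordecone 1, 2 and 3, so that the groups were adjacent but did not overlap. Complex IV, cytochrome c oxidase, was the most uniform in this list. Its 10 listed nuclear subunits were all lower at an unadjusted p under 0.05 and without overlap. Their log2 fold changes ran from -0.54 to -0.33. Cox7a1, a complex IV subunit outside the list, was also lower at that level, with a log2 fold change of -0.88 (adjusted p = 0.4575). Complex I had 20 of 36 at that level, complex II 2 of 4, complex III with cytochrome c 4 of 9, and complex V, the ATP synthase, 5 of 17.

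Cox5b, a subunit of complex IV, had 77.6, 84.3 and 86.3 CPM in controls and 56.0, 57.8 and 60.6 CPM in chlordecone libraries (log2 fold change -0.51, SE 0.10, adjusted p = 0.287). Ndufs4, a subunit needed to assemble complex I, had 78.9, 94.9 and 86.7 CPM against 59.8, 57.3 and 64.9 CPM (adjusted p = 0.313), and Ndufa3, another complex I subunit, 117, 117 and 113 CPM against 80.7, 88.0 and 87.4 CPM (adjusted p = 0.330). Atp5k, a subunit of complex V, had 78.0, 93.2 and 110 CPM against 52.5, 53.8 and 69.5 CPM (log2 fold change -0.68, SE 0.17, adjusted p = 0.334). In each of these 4 genes the groups were separate. Of the 13 genes for proteins encoded by the mitochondrial genome 10 were higher, with a median of 0.23 and 1 at an unadjusted p under 0.05, mt-Nd5 (633, 652 and 869 CPM against 893, 984 and 919 CPM, adjusted p = 0.469). That median was 0.03 without control 1, 0.09 without chlordecone 3 and 0.44 with the exon length correction. Genes of the tricarboxylic acid cycle, which feeds the respiratory chain, had a median of -0.06 (0.04 without control 1), and 2 of 24 were lower at an unadjusted p under 0.05, Sdhb and Sdhc, which are also subunits of complex II.

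The promoter of Atp5k, among these 4 genes, holds the core of the site of nuclear respiratory factor 1 (NRF1), a regulator of respiratory chain genes. That core is GCGCA, any base and GCGC. Promoters of the other genes named are not shown here. The Atp5k promoter is chr5:108434350-108434649, on the minus strand of GRCm38.p6 in RefSeq's table, with the match, searched on both strands, in capitals.
Atp5k promoter: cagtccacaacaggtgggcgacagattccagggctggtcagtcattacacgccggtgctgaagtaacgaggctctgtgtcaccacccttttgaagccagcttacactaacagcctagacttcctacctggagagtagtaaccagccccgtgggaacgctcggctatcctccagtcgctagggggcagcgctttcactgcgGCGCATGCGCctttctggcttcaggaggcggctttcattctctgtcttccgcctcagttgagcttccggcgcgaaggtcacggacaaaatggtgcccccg
The table has a promoter for 61 genes of the list, and 17 of these (27.9%) hold the motif, against 5.19% of all genes. As for the ISRE, its relation to the difference between the lineages was not tested.

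Fold changes of all coding genes moved with transcript length, and oxidative phosphorylation genes tend to be short. Protein-coding genes with a summed exon length under 1 kb had a median log2 fold change of -0.37 (335 genes, 25.7% lower at an unadjusted p under 0.05), and the median was -0.22 from 1 to 2 kb, -0.11 from 2 to 3 kb, -0.01 from 3 to 5 kb and 0.13 over 5 kb. For the shortest genes the library medians overlapped between groups: -0.22, 0.26 and -0.02 in controls and -0.48, -0.39 and -0.12 in chlordecone libraries. Set beside other coding genes of the same length, oxidative phosphorylation genes had -0.44 against -0.36 under 1 kb, -0.35 against -0.21 from 1 to 2 kb, and -0.25 against -0.01 from 3 to 5 kb. With each library corrected for exon length, an alternative chosen after seeing the data, their median was -0.18 and 25 had an unadjusted p under 0.05. The count of 41 was 22 without control 2, 16 without chlordecone 1 and 18 without chlordecone 2. Interferon genes were below other coding genes in each length class, from -1.33 for the 2 genes under 1 kb to -0.52 for the 9 over 5 kb. After the correction their median was -0.96, with 19 genes at an unadjusted p under 0.05.

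Cytosolic ribosomal protein genes are abundant and mostly short. Of 83 genes 82 were lower, with a median of -0.23, but 5 had an unadjusted p under 0.05, close to the 5.64% of all genes. Their medians were -0.13, 0.28 and -0.12 in controls and -0.43, -0.31 and 0.02 in chlordecone libraries, with overlap. Under 1 kb they had -0.32, where other coding genes of that length had -0.37. Rpl26, a protein of the large subunit, had 406, 712 and 578 CPM in controls and 313, 334 and 388 CPM in chlordecone libraries (adjusted p = 0.389). Their median was -0.11 without control 2, -0.14 without chlordecone 1 and -0.39 without chlordecone 3. The count of 5 was 17 without control 1, 28 without chlordecone 3, 2 without control 2 and 1 without chlordecone 1 or chlordecone 2.

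**Figure D4:**
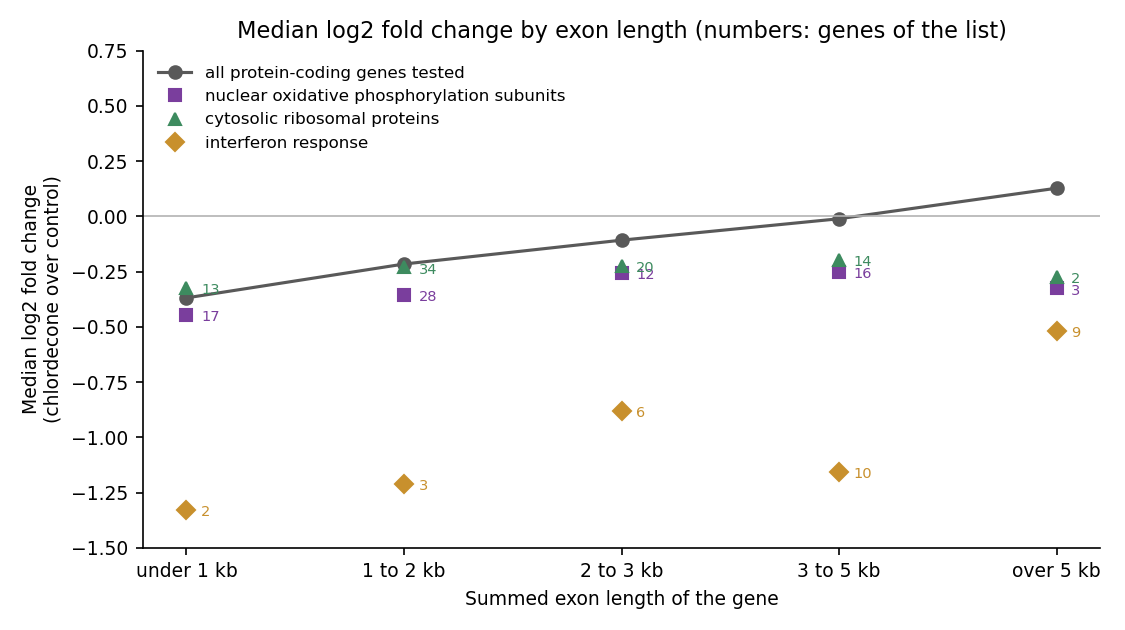
Median log2 fold change (vertical axis, chlordecone over control) of all protein-coding genes tested (grey line) and of 3 gene lists (coloured points, with the number of genes) by summed exon length of the gene (horizontal axis). The grey line climbs from -0.37 under 1 kb to 0.13 over 5 kb, ribosomal protein genes lie close to it below 2 kb, oxidative phosphorylation genes lie below it in every class, and interferon genes lie far below it.

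Markers of basal epithelial cells were higher. Of 14 tested markers 13 were higher, where 48.8% of all genes were, with a median of 0.30, 5 had an unadjusted p under 0.05 (4.97% of all genes were higher) and 6 had groups that did not overlap (8.34%). The library medians were -0.03, 0.01 and 0.02 in controls and 0.26, 0.36 and 0.40 in chlordecone libraries, without overlap. Col17a1, a collagen of the hemidesmosome, had 11.2, 12.3 and 15.3 CPM in controls and 18.8, 20.8 and 21.03 CPM in chlordecone libraries (log2 fold change 0.65, SE 0.15, adjusted p = 0.330). Krt15, a keratin of basal and progenitor cells, had 69.9, 74.6 and 60.7 CPM against 81.1, 113 and 123 CPM (adjusted p = 0.378), and Trp63 (p63), the transcription factor that defines basal cells, 12.2, 10.99 and 15.2 CPM against 16.2, 19.06 and 17.997 CPM (adjusted p = 0.419). Krt14, another basal keratin, overlapped between groups (20.7 to 23.9 CPM against 18.9 to 30.8 CPM). None passed the threshold, and the count of 5 was 3 without control 2 or chlordecone 3 and 2 without chlordecone 2. The markers had a median exon length of 6311.5 bases, and of coding genes over 5 kb only 31.5% were lower, with a median of 0.13. With the exon length correction 11 markers were higher and 3 lower, with a median of 0.32 and 5 at an unadjusted p under 0.05.

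Luminal epithelial markers had a median of -0.01 over 16 genes, with 1 at an unadjusted p under 0.05, Prom1. Krt8, a luminal keratin, had 438, 522 and 471 CPM in controls and 511, 423 and 492 CPM in chlordecone libraries, with overlap, and a log2 fold change of 0.00 with an SE of 0.14. Prostate secretory products were uneven, with 4 of 17 higher at an unadjusted p under 0.05 (1 without chlordecone 3), as were 4.97% of all genes. Pbsn, probasin, an androgen-dependent secretory protein, had 20961, 33248 and 26015 CPM in controls and 17701, 17322 and 20607 CPM in chlordecone libraries, lower without overlap yet short of the threshold (log2 fold change -0.53, SE 0.25, adjusted p = 0.495). Defb50, a beta-defensin of the prostate, had 38.5, 39.6 and 59.5 CPM against 120, 53.03 and 260 CPM (adjusted p = 0.393), and Msmb, a microseminoprotein, had 1.11, 1.63 and 2.32 CPM against 6.25, 0.837 and 17.4 CPM (adjusted p = 0.450), chlordecone 3 being the highest for both.

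Androgen-responsive genes were slightly higher, 19 of 23 (48.8% of all genes were), with a median of 0.18. The list does not hold Pbsn, counted above with the secretory products, which was lower (log2 fold change -0.53). At an unadjusted p under 0.05, 4 were higher (4.97% of all genes). With the exon length correction 18 were higher, with a median of 0.14 and 3 at an unadjusted p under 0.05. Steap4, a metalloreductase, had 6.06, 7.03 and 5.20 CPM in controls and 9.05, 11.3 and 10.6 CPM in chlordecone libraries (adjusted p = 0.330), and Fkbp5, a classical androgen and glucocorticoid target, 36.0, 33.7 and 29.5 CPM against 40.8, 39.1 and 37.7 CPM (adjusted p = 0.504). The groups did not overlap for either gene, and differences were small. Of 19 steroid receptors and their coregulators 16 were higher, with a median of 0.22. Of these 3 had an unadjusted p under 0.05 (4.97% of all genes were higher), Pgr and Ncoa2 among them. Esr1 (oestrogen receptor alpha) had 61.4, 53.8 and 56.1 CPM against 74.8, 66.9 and 60.8 CPM (adjusted p = 0.509), with overlap, and Esr2 (oestrogen receptor beta) had 2.60 to 2.89 CPM against 2.84 to 3.25 CPM. Of 17 oestrogen-responsive genes 2 were higher (Pgr and Stc2) and 1 lower at an unadjusted p under 0.05, the last being Ccnd1, cyclin D1, with 47.7, 54.2 and 53.9 CPM against 37.3, 37.1 and 32.6 CPM (log2 fold change -0.54, SE 0.12, adjusted p = 0.310). The median among steroid receptors was 0.13 with the exon length correction and 0.12 without control 2, and their count of 3 was 0 without control 2, chlordecone 1 or chlordecone 2, and the count of 4 among androgen-responsive genes was 2 without each of these and 7 without control 1.

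Within the Hox family, whose gene clusters set the identity of segments along the body axis, the higher genes with an unadjusted p under 0.05 were all in the A cluster. Of 8 tested Hoxa genes on chromosome 6, 7 were higher, with a median of 0.74. Of these 5 had an unadjusted p under 0.05 (4.97% of all genes were higher) and no overlap (8.34% of all genes). Of 9 Hoxb and 7 Hoxd genes 0 had such a p. Hoxa7 had 1.08, 1.75 and 1.44 CPM in controls and 4.77, 4.68 and 3.94 CPM in chlordecone libraries (log2 fold change 1.65, SE 0.24, adjusted p = 0.105). Hoxa3 had 0.201, 0.297 and 0.390 CPM against 0.970, 1.42 and 1.04 CPM (adjusted p = 0.218), Hoxa9 had 11.4, 12.3 and 15.53 CPM against 24.4, 22.9 and 19.3 CPM (adjusted p = 0.300), and Hoxa10 had 14.2, 21.4 and 22.1 CPM against 35.9, 31.5 and 28.1 CPM (adjusted p = 0.363). Hoxa9 and Hoxa10 are among the Hox genes that pattern the male tract. The neighbouring genes of a cluster share their region and, where they overlap, their reads, so these 5 are not 5 separate observations. Hoxb13, the most prostate-restricted of the family, had 539, 590 and 468 CPM against 433, 472 and 454 CPM, with overlap. Of the Hoxd genes 6 of 7 were lower, with a median of -0.45. The difference between the clusters was not tested.

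Of 18 tested genes that handle zinc, which the prostate stores and secretes, 5 were higher and 3 lower at an unadjusted p under 0.05 (4.97% and 5.64% of all genes). All 3 tested metallothioneins, the cytosolic proteins that bind zinc, were lower without overlap: Mt3 had 444, 446 and 340 CPM in controls and 163, 248 and 278 CPM in chlordecone libraries (log2 fold change -0.84, SE 0.21, adjusted p = 0.3496), Mt2 had 1600, 2043 and 1665 CPM against 1096, 1284 and 1407 CPM (adjusted p = 0.432), and Mt1 had 2266, 3388 and 1920 CPM against 1502, 1788 and 1840 CPM (adjusted p = 0.458). Of 7 Slc30a exporters 5 were higher and 2 lower, with a median of 0.04 and 2 at an unadjusted p under 0.05. Slc30a4, which moves zinc out of the cytosol into vesicles, had 3.59, 5.29 and 5.25 CPM against 12.6, 13.9 and 9.85 CPM (log2 fold change 1.37, SE 0.22, adjusted p = 0.146). Slc30a7, the exporter into the secretory pathway, had 84.7, 85.0 and 65.6 CPM against 118, 112 and 98.4 CPM (adjusted p = 0.389). All 7 importers of the Slc39a family were higher, with a median of 0.36 and 3 at an unadjusted p under 0.05. Metallothioneins are short transcripts, and with the exon length correction the counts over the 18 genes were 2 higher and 1 lower in place of 5 and 3. The higher count was 3 without control 1, chlordecone 2 or chlordecone 3 and 2 without chlordecone 1, and the lower count was 1 without control 2, chlordecone 1 or chlordecone 2.

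Markers of seminal vesicle, a gland that lies against the prostate and can be carried over in dissection, were lower. All 8 tested secretory proteins of the seminal vesicle were lower (51.2% of all genes were), with a median log2 fold change of -1.80. At an unadjusted p under 0.05, 5 were lower (5.64% of all genes). Svs4, the most abundant, had 26.0, 43.7 and 6.4998 CPM in controls and 8.65, 9.41 and 6.10 CPM in chlordecone libraries (adjusted p = 0.421). Ceacam10, a secreted seminal vesicle protein, had 13.2, 3.42 and 2.42 CPM against 0.413, 0.767 and 0.236 CPM (log2 fold change -3.76, SE 0.73, adjusted p = 0.258). Summed with the 2 listed genes that had too few counts to test, the level was 61.4, 75.1 and 13.1 CPM in controls and 13.9, 17.4 and 10.2 CPM in chlordecone libraries. Control 3 thus lay within the chlordecone range, and the difference rested on control 1 and 2. The count of 5 was 2 without control 2 or chlordecone 3 and 8 without control 3.

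Stromal and fat markers varied more within groups than between them. Smooth muscle genes had a summed level of 1944, 6231 and 5310 CPM in controls and 2481, 3795 and 3638 CPM in chlordecone libraries. Acta2, smooth muscle actin, had 240, 794 and 615 CPM against 309, 470 and 414 CPM, and control 1 was the lowest library for 17 of the 19 genes. None had an unadjusted p under 0.05 in all 6 libraries, but without control 1 the median log2 fold change was -0.76 and 15 did. Fibroblast and matrix genes had 1 of 28 at that level, and 11 without control 1. Adipose genes spanned the widest range: Adipoq, adiponectin, had 4.78, 24.9 and 0.407 CPM in controls and 0.377, 7.26 and 6.59 CPM in chlordecone libraries, with 0 of 13 genes at an unadjusted p under 0.05. Their median log2 fold change was -0.70, and 0.68 without control 2. Control 1, low in smooth muscle, was the library highest in interferon genes, and control 2, high in fat and smooth muscle, was the highest in 62 of the 76 oxidative phosphorylation genes. Their part in those results was not tested.

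**Figure D5:**
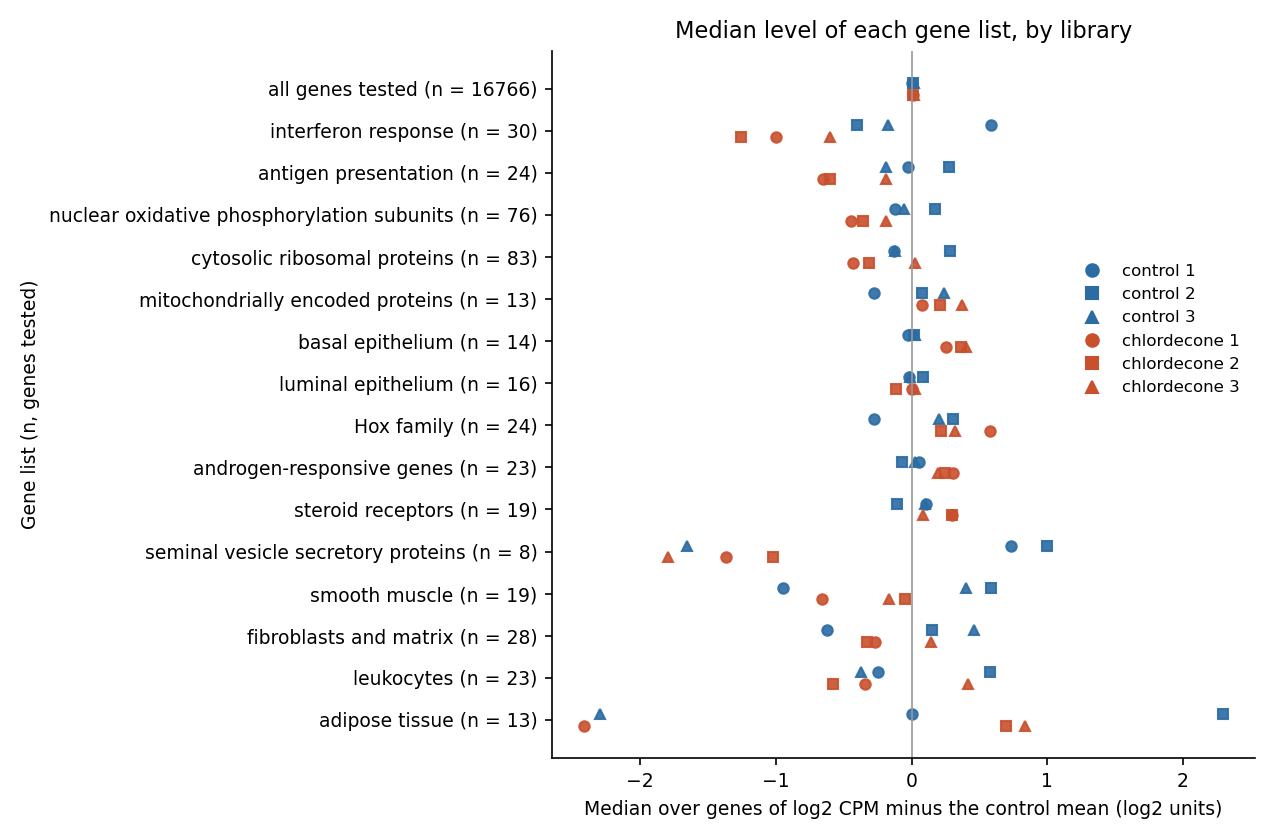
Median over the genes of each list (vertical axis, with the number tested) of log2 CPM minus the mean of the controls (horizontal axis, log2 units), with controls in blue and chlordecone libraries in red and 1 symbol shape per replicate number. The groups are separate for interferon response, oxidative phosphorylation, basal epithelium and androgen-responsive genes, and they overlap for stromal, leukocyte and adipose lists, where single libraries lie farthest out.

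Genes that write and read chromatin marks, often examined where an effect outlasts exposure, moved little one by one. Of 20 tested genes of the DNA methylation machinery 15 were higher, with a median of 0.16. At an unadjusted p under 0.05, 1 was higher (4.97% of all genes), Mbd1, a methyl-CpG binding protein. Mbd1 had 31.5, 34.7 and 37.1 CPM in controls and 80.8, 62.8 and 43.9 CPM in chlordecone libraries (log2 fold change 0.86, SE 0.21, adjusted p = 0.330). Dnmt3b, a de novo DNA methyltransferase, had 1.61, 1.03 and 1.25 CPM against 1.86, 1.96 and 1.41 CPM, with overlap. The median was 0.26 without control 1, 0.04 without control 2 and 0.09 with the exon length correction, and the count of 1 was 2 without control 1 and 3 without control 3. Of 45 histone modifying enzymes 36 were higher (48.8% of all genes were). An unadjusted p under 0.05 was reached by 2, Kdm6a and Hdac4, near the 4.97% of all genes that were higher at that level. Kdm6a, the X-linked demethylase of H3K27, had 21.96, 16.9 and 24.6 CPM against 34.9, 30.2 and 25.0 CPM (adjusted p = 0.435), and its Y-linked counterpart Uty had 22.1, 22.8 and 24.4 CPM against 43.5, 38.1 and 33.7 CPM (adjusted p = 0.218). The count of 2 was 10 without control 1, 5 without control 3 and 0 without control 2, chlordecone 1 or chlordecone 2. Many of these enzymes have long transcripts, which were higher as a class, and with the length correction 1 was higher and 2 were lower. Imprinted genes, expressed from 1 parental allele, had a median of 0.00 over 35 genes. Of them 2 were higher and 2 lower at an unadjusted p under 0.05, near the all-gene shares of 4.97% and 5.64%. Without control 1 these counts were 0 and 4, without control 3 3 and 0, and without chlordecone 1 or chlordecone 3 1 and 0. Igf2, a growth factor expressed from the paternal allele, had 1.49, 1.64 and 1.88 CPM against 2.15, 2.39 and 4.42 CPM (adjusted p = 0.450).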

How the data were processed

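Prostate poly-A RNA of 3 F3 control and 3 F3 chlordecone samples was sequenced with stranded libraries, per the labels' protocols. The authors deposited raw read counts per gene. TopHat2 2.0.14, HTSeq 0.6.1, Bowtie2 2.1.0 and the mm10 build are named, with no role or order, in the submitters' processing notes. The annotation release and strand setting are unknown here, so overlapping and antisense genes are uncertain. Coordinates are from GENCODE M21 (GRCm38), which matched 25835 identifiers.

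The counts were filtered with filterByExpr (minimum count 10, total 15), scaled by TMM and given the two-sided quasi-likelihood F test of edgeR 4.0.16 (R 4.3.3), with no covariate and Benjamini-Hochberg adjustment. The scripts were tested on simulated data. Lists were described by counts and medians, with no set test, and members and lists were chosen with earlier results of these data known. Genes named were all past the threshold, 12 next in each direction (mean of at least 1 CPM, no overlap, a real symbol), up to 4 members per list by p and then the most abundant until 3, and neighbours within 1.5 Mb at an unadjusted p under 0.05. Some others, named for contrast within a list, were chosen after their values were seen. Alternatives were another scaling, 2 filters, DESeq2 1.42.0, the replicate block, leaving out each library and an exon length correction. F1 samples were not used here, and a few genes are not reported here.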

Additional observations from a re-analysis of the deposited data

How the results depend on the processing

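Of 10 genes called, 4 higher and 6 lower, DESeq2 size factors called 10. Without a count filter 38 were called (14 higher, 24 lower), with a mean of at least 1 CPM 8, by the DESeq2 Wald test 249 (114 higher, 135 lower) and with exon length correction 11. The replicate block called 8, 7 of them among the 10, losing Fmod, Fut4 and Lsm6. Same-numbered samples correlated at 0.131, 0.002 and 0.002 in their deviations from the group means, and chlordecone 2 and 3 each correlated best with another number, so the numbers were not taken to pair the samples. Leaving out 1 library gave 7 genes (without chlordecone 2) to 41 (without control 1), 5 to 18 of them higher and 2 to 23 lower. None of the 10 called genes changed direction under any of these in which it was tested. Depth limits the lowest values: Trim5 rests on 8 counts in chlordecone 2 and 8 in chlordecone 3.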

Other observations

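Among 19 tested circadian clock genes 2 were higher and 1 lower at an unadjusted p under 0.05 (10.6% of all genes in either direction). Dbp, an output factor of the clock, had 42.3, 68.2 and 48.1 CPM in controls and 31.7, 18.4 and 16.5 CPM in chlordecone libraries (log2 fold change -1.25, SE 0.28, adjusted p = 0.311), while Clock had 37.2, 32.9 and 44.3 CPM against 63.2, 54.3 and 45.3 CPM (adjusted p = 0.414). The time of tissue collection is not given in the sources used here. Of 34 genes of xenobiotic metabolism 3 were higher and 3 lower at an unadjusted p under 0.05 (4.97% and 5.64% of all genes). Gsto1 and Gsta4, glutathione transferases, were lower without overlap (37.7, 29.7 and 33.6 CPM against 16.2, 18.7 and 24.0 CPM, and 51.6, 54.8 and 56.2 CPM against 34.1, 39.5 and 41.3 CPM), and Cyp2f2, a cytochrome P450, was higher (0.190, 2.93 and 6.30 CPM against 11.5, 42.0 and 13.3 CPM). Ugt2b35, a glucuronosyltransferase of the family that conjugates steroids, had 0.0529, 0.0424 and 0.0166 CPM in controls and 0.422, 0.802 and 0.349 CPM in chlordecone libraries (adjusted p = 0.127). In the antioxidant list 2 of 26 were higher and 3 lower at that level (4.97% and 5.64% of all genes). Slc7a11, the cystine importer, had 4.73, 4.88 and 3.88 CPM against 6.86, 9.85 and 8.48 CPM (adjusted p = 0.310), and Cat, catalase, had 30.1, 30.5 and 26.9 CPM against 37.3, 35.6 and 41.9 CPM (adjusted p = 0.404). Of 33 tested prostate developmental regulators 14 were higher and 19 lower, with a median of -0.02. At an unadjusted p under 0.05, 4 were higher and 0 lower (4.97% and 5.64% of all genes), and the 4 fell to 1 without chlordecone 2 or chlordecone 3. Fgfr2, a growth factor receptor that acts in prostate branching, had 23.6, 25.1 and 28.3 CPM against 31.8, 31.3 and 32.4 CPM (adjusted p = 0.454), higher without overlap.

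A few genes were high or nearly absent in single libraries across both groups, which the group comparison cannot show. H2-Eb1, a class II chain, had 12.02, 0.806 and 0.440 CPM in controls and 5.17, 6.08 and 0.745 CPM in chlordecone libraries, while H2-Aa, its neighbour in the complex, was between 14.4 and 38.9 CPM. H2-T22 had 6.68, 46.9 and 29.3 CPM against 5.43, 29.6 and 34.4 CPM, low in control 1 and chlordecone 1. Pigr, the receptor that carries antibodies across epithelia, had 73.4, 23.2 and 2.56 CPM against 20.7, 7.95 and 36.2 CPM.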
